A study of Mus musculus with 6 samples.

Results

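Lipids move between brain cells on apolipoprotein particles, and 8 genes of that traffic were followed in the tissue around a blood clot: the carriers Apoe, Clu and Apod, the lipid exporters Abca1, Abcg1 and Abca2, and the fatty acid binding proteins Fabp5 and Fabp7. They were chosen by symbol, and all 8 were found among the 24459 genes of the gene table, with 29 of the 75457 isoforms of the isoform table. The tissue was perihematomal brain of wild-type mice on day 5 after intracerebral haemorrhage (ICH, bleeding into the brain). The first group had been given TEPP-46, an activator of the glycolytic enzyme pyruvate kinase M2, on consecutive days after the bleed, and the second group vehicle, so both groups carried the haemorrhage and no uninjured tissue was included. Long-read cDNA libraries were counted for 3 TEPP-46 and 3 vehicle samples. The sources used here do not state strain, age or sex. They also do not tell whether each sample was another mouse, so that a p-value reflects the spread among these samples alone, which may be technical.

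Neurons obtain much of their cholesterol from astrocytes, which load it onto ApoE particles through the ABC transporters ABCA1 and ABCG1. When cells take up membrane debris, as phagocytes do after a haemorrhage, sterols formed from the excess cholesterol activate the liver X receptors, and these switch on Abca1, Abcg1 and Apoe. Clusterin, from Clu, and apolipoprotein D, from Apod, carry lipids beside ApoE. ABCA2 sits in endosomes and lysosomes and is known from oligodendrocytes, while FABP5 and FABP7 carry fatty acids inside cells, FABP7 mainly in astrocytes and their precursors.

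The Abca1 promoter holds the best known liver X receptor element of the group, and it is shown as the DNA that these receptors read. The element is AGGTCA repeated in the same direction after 4 bases of any kind, searched on both strands in the 250 bases before each start. Capitals mark the closest match, on the strand opposite to the gene and 67 bases before the start, in GRCm38.p6 (chr4:53159925-53159984, minus strand, RefSeq).
Abca1: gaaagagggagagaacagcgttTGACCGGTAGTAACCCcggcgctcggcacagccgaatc
This match had 3 mismatches, and 18.5% of 32851 promoters held a match at least as close, so it is a description of the sequence and not a sign of binding. The promoter table matched 5 of the 8 genes, and Abcg1, Clu and Fabp5 were not searched. Of the 5, Fabp7 had a match as close as that of Abca1, with 3 mismatches. Abca2 had 4 mismatches, Apod 5, and the starts of Apoe 4 or 5.

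FABP5 and FABP7 are relatives, and the stretch below shows how far their messages differ in a part of the coding sequence, which bears on whether reads can be told apart. The lines give 90 coding bases of each, bases 31 to 120 of Fabp5 and 25 to 114 of Fabp7 (GENCODE M21, GRCm38), with differing bases in capitals.
Fabp5: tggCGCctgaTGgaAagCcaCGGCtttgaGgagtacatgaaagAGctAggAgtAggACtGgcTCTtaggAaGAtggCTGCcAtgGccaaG
Fabp7: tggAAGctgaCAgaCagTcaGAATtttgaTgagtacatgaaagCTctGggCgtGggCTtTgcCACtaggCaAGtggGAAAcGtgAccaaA
In this stretch 57 of 90 bases were identical, and over the aligned coding sequences 57.0% of 395 bases were. No stretch of 31 bases of the leading annotated isoform of Fabp7 was found in another gene's transcripts, nor of Apoe, Clu, Abca1 or Abca2. Abcg1 shared 0.259% of its stretches with 5 other genes, led by its relative Abcg4, and Apod shared 2.10% with 299 other genes. For Fabp5, however, 33.1% of its 31-base stretches also occur in 5 other genes, led by the processed pseudogene Gm6166, so Fabp5 counts are uncertain to the extent that the authors' counting exchanged reads with such copies. None of those 5 loci was found in the gene table as used here, so no counts of theirs could be set beside Fabp5. An exchange of reads was not tested.

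Library totals were between 5286426 and 6025064 counts, and levels below are in CPM, counts scaled to an equal total for every library. Vehicle library C2 stood apart with high levels of phagocyte genes, and vehicle library C4 with low levels of these and of myelin genes. Markers of activated microglia summed to 3214, 5816 and 7506 CPM in TEPP-46 libraries T1, T2 and T3, against 2475, 11337 and 1748 CPM in vehicle libraries C1, C2 and C4. The 11 oligodendrocyte markers summed to 13334 to 15535 CPM in TEPP-46 and to 5439 CPM in C4, with 13592 and 13801 CPM in the other vehicle libraries. Neuron markers, the check of brain tissue, summed to 6096 to 7727 CPM in TEPP-46 and 5979 to 7521 CPM in vehicle.

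None of the 8 genes was called different between TEPP-46 and vehicle. All 8 passed the filter on low counts and entered the edgeR quasi-likelihood fit of 14441 genes, and 0 were called at a Benjamini-Hochberg adjusted p under 0.05, where the share called over all genes was 0%. Adjusted p-values of the 8 lay between 0.941 and 0.999. At an unadjusted p under 0.05 none of the 8 passed, against 856 genes in all (5.93%), and DESeq2 called none of the 8 and 79 genes in all (0.547%). In all 8 genes the TEPP-46 and vehicle libraries overlapped. Over all tested genes 11.4% had groups without overlap, 5.67% with TEPP-46 higher and 5.76% with TEPP-46 lower. So few as 8 genes cannot show a departure from that share. The log2 fold changes of TEPP-46 over vehicle were positive in 6 of the 8, with a median of 0.16, beside 51.1% positive and a median of 0.01 over all tested genes. In the authors' deposited table the 8 genes had unadjusted p-values between 0.270 and 0.957 and log2 fold changes between -0.04 and 0.24.

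**Figure D1:**
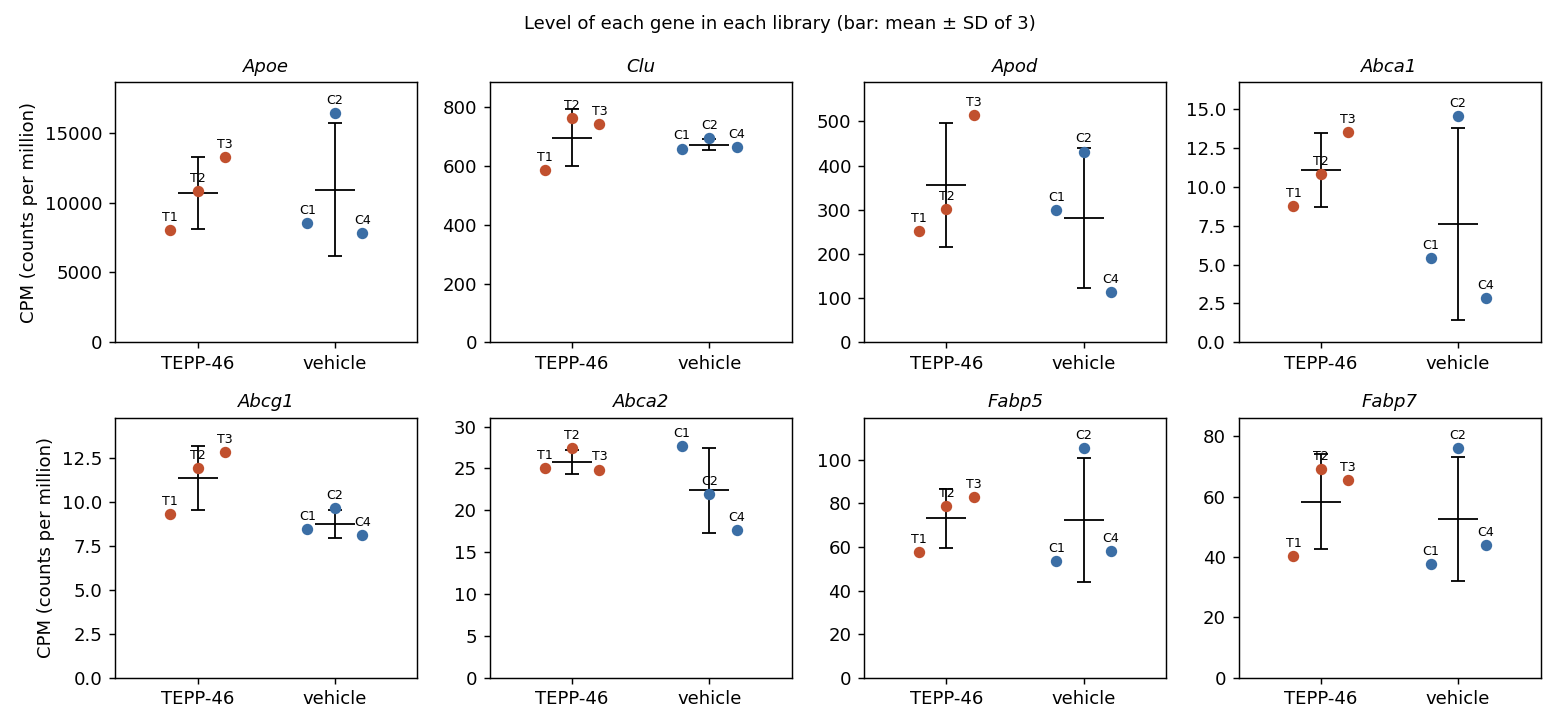
Level of each of the 8 genes in CPM (vertical axes, each from 0) in the 3 TEPP-46 and 3 vehicle libraries, with points labelled by library and bars for the mean ± SD. Apoe, Abca1, Fabp5 and Fabp7 were highest in vehicle library C2, Apoe, Apod, Abca1, Abcg1 and Abca2 were lowest in vehicle library C4, and the groups overlap in every panel.

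Apoe (chromosome 7, 19696109 to 19699188, minus strand) encodes the main lipid carrier of the brain. It was at 8069.8, 10822 and 13253 CPM in T1, T2 and T3, against 8557, 16421 and 7846 CPM in C1, C2 and C4. The highest and the lowest library, C2 and C4, were thus both vehicle libraries, and differed 2.09-fold. Group means were 10715 ± 2593 CPM in TEPP-46 and 10942 ± 4759 CPM in vehicle (n = 3 per group, ± SD). The log2 fold change was -0.05 with a 95% interval of -0.76 to 0.66, an interval that holds a rise as well as a fall.

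Apod (chromosome 16, 31296192 to 31314808, minus strand) encodes a lipocalin, a small carrier of hydrophobic molecules that oligodendrocytes, astrocytes and fibroblasts make. It was at 251, 301 and 515 CPM in T1, T2 and T3, against 298, 432 and 115 CPM in C1, C2 and C4. T3 was the highest library and C4 the lowest, 4.49-fold apart, and C1 and T2 were nearly level. The mean was 356 ± 140 CPM in TEPP-46 and 282 ± 159 CPM in vehicle (n = 3 per group, ± SD), a log2 fold change of 0.32 with a 95% interval of -0.84 to 1.48. Low Apod in C4 stood beside the low oligodendrocyte markers of that library, which was also lowest in reactive astrocyte markers, at 106 CPM. T1, with the highest oligodendrocyte sum of all (15535 CPM), had lower Apod than every library but C4. The part of these cells in the level of Apod was not tested.

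Clu (chromosome 14, 65968483 to 65981547, plus strand) was the steadiest of the carriers. It was at 586, 764 and 743 CPM in T1, T2 and T3, against 660, 694 and 665 CPM in C1, C2 and C4. The vehicle libraries were nearly level although they included C2 and C4, and all 3 lay inside the range of the TEPP-46 libraries. Means were 697 ± 97.1 CPM in TEPP-46 and 673 ± 18.7 CPM in vehicle (n = 3 per group, ± SD), with a log2 fold change of 0.04 and a 95% interval of -0.25 to 0.33. Markers of choroid plexus and ependyma, where Clu is also made, summed to 1837 to 3256 CPM in TEPP-46 and to 4131 CPM in C1. In C2 and C4 they summed to 24.9 and 22.1 CPM, while Clu there was near its level in C1. The choroid plexus gene Ttr made up most of the high sums: C1 had 4053 CPM of it, C2 0.526 CPM and C4 13.6 CPM. Ependymal Foxj1 was not lost in C2, with 14.2 CPM against 12.7 CPM in C1, but C4 had 3.59 CPM. Ccdc153 was lower in C2 (4.03 CPM) than in C1 (6.55 CPM). The sums thus mainly reflect choroid plexus, and the part of either tissue in Clu was not tested.

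Among the exporters, Abca1 (chromosome 4, 53030787 to 53159895, minus strand) had the widest spread and few counts. Counts were 53, 61 and 72 in T1, T2 and T3, against 29, 83 and 15 in C1, C2 and C4. In CPM these were 8.80, 10.8 and 13.6 against 5.43, 14.6 and 2.84. The exact Poisson 95% interval was 11.6 to 18.0 CPM in C2 and 1.59 to 4.68 CPM in C4, which covers counting error only. C2 and C4 therefore differed beyond counting error, 5.13-fold, within the vehicle group. Means were 11.1 ± 2.39 CPM in TEPP-46 and 7.61 ± 6.16 CPM in vehicle (n = 3 per group, ± SD), with a log2 fold change of 0.51 and a 95% interval of -0.64 to 1.67.

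Abcg1 (chromosome 17, 31057675 to 31117988, plus strand), which passes cholesterol to particles that already carry lipid, had the smallest unadjusted p of the 8 at 0.147 (edgeR, adjusted p = 0.941). It had 56, 67 and 68 counts in T1, T2 and T3, against 45, 55 and 43 in C1, C2 and C4, or 9.29, 11.9 and 12.8 CPM against 8.43, 9.65 and 8.13 CPM. T2 and T3 were above all vehicle libraries, while T1 was below C2, and the Poisson 95% intervals of T1 (7.02 to 12.1 CPM) and C2 (7.27 to 12.6 CPM) overlapped nearly in full. The log2 fold change was 0.36 with a 95% interval of -0.15 to 0.87. Unlike Abca1, Abcg1 in C2 was close to its level in C1 and C4.

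Abca2 (chromosome 2, 25428703 to 25448540, plus strand), a transporter of endosomes and lysosomes, was even in TEPP-46. It was at 25.1, 27.4 and 24.9 CPM in T1, T2 and T3, against 27.7, 21.9 and 17.6 CPM in C1, C2 and C4. C4, the library with the lowest oligodendrocyte markers, was lowest, and C1 was highest of all 6. The log2 fold change was 0.19 with a 95% interval of -0.26 to 0.64.

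The fatty acid binding protein genes had like profiles across libraries. Fabp5 (chromosome 3, 10012548 to 10016607, plus strand) was at 57.8, 78.8 and 83.1 CPM in T1, T2 and T3, against 53.7, 105 and 58.1 CPM in C1, C2 and C4. Fabp7 (chromosome 10, 57784881 to 57788450, plus strand) was at 40.3, 69.2 and 65.6 CPM in TEPP-46, against 37.6, 76.1 and 43.9 CPM in vehicle. In both, T2, T3 and C2 were high and T1, C1 and C4 low, which cuts across the treatment. Mean Fabp5 was 73.2 ± 13.6 CPM in TEPP-46 and 72.4 ± 28.7 CPM in vehicle, and mean Fabp7 was 58.4 ± 15.7 and 52.6 ± 20.7 CPM (n = 3 per group, ± SD). Their log2 fold changes were -0.0017 (95% interval -0.62 to 0.61) and 0.13 (-0.55 to 0.82).

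The 8 genes differed in how they followed the libraries, as the map of centred levels shows. The root mean square difference of log2(CPM + 1), after centring each gene on its mean over the 6 libraries, was 0.10 between Apoe and Fabp5, 0.11 between Fabp5 and Fabp7 and 0.18 between Apoe and Fabp7. Apod and Abca1 were 0.30 apart, and Clu was 0.67 from Abca1. Apoe, Fabp5 and Fabp7 thus had nearly the same profile, and Apod and Abca1 a steeper one with a deep low in C4. Clu, Abcg1 and Abca2 varied less, although the centred value of Abca2 in C4 (-0.42) was near that of Apoe (-0.41).

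**Figure D2:**
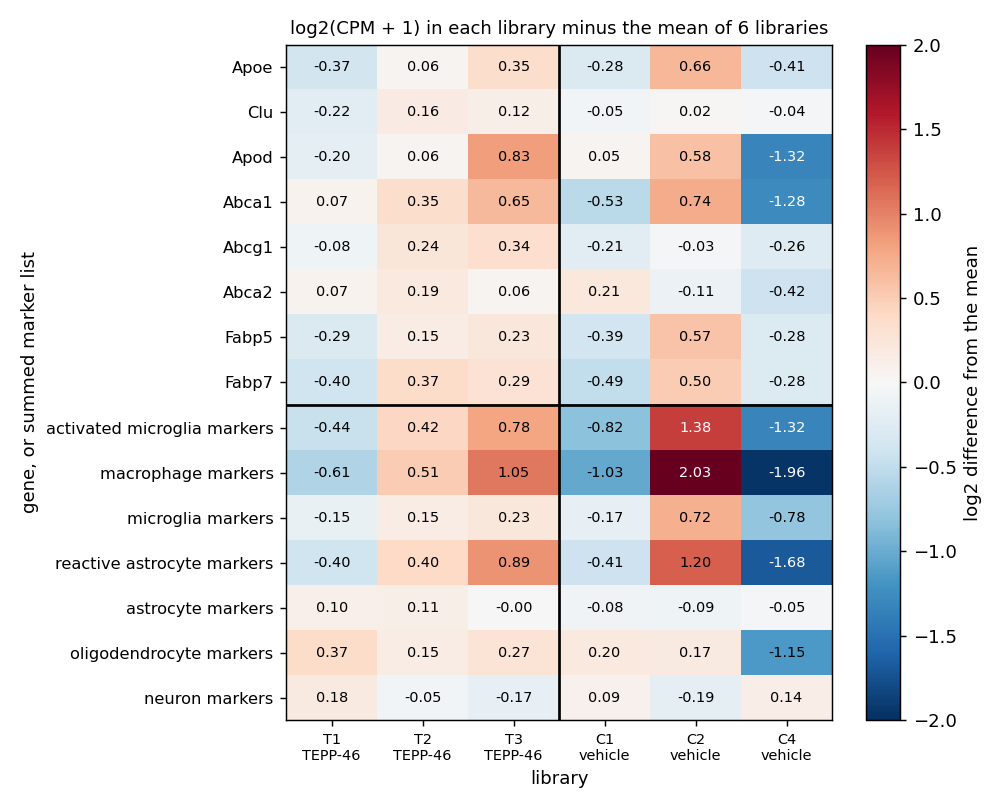
Colour and printed value give log2(CPM + 1) minus its mean over the 6 libraries (columns, TEPP-46 left of the line and vehicle right of it), for the 8 genes (rows above the line) and for summed lists of cell type markers (rows below it). Abca1 and Apoe are high in C2 and low in C4, as are the activated microglia markers, which summed to 11337 CPM in C2 and 1748 CPM in C4, while Clu and the summed astrocyte markers, most of whose counts are Aldoc and Slc1a2, are nearly flat.

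Genes most like these in profile were taken by a rule from 6123 genes with a mean of 20 CPM or more. Closest to Apoe were S100a13, Gng5 and Dynlt1f, at 0.06, 0.07 and 0.08 on the same log2 scale over 6 libraries. Fabp7 was closest to Ddah2, at 0.11. Apod was closest to Gpx3 at 0.16 and Sparc, a matrix protein gene, at 0.17, followed by the astrocyte water channel gene Aqp4 at 0.20. Nearest to Abca1 were S100a6 at 0.10, Ly86, a gene of microglia and macrophages, at 0.14 and the lysosomal enzyme gene Gusb at 0.17.

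The order of the libraries was the same for Abca1 as for several lists of markers. Activated microglia, macrophage, microglia, reactive astrocyte and red blood cell markers each ran from C2, the highest, through T3, T2, T1 and C1 to C4, as Abca1 did, and in Apoe T1 and C1 changed places. All 11 activated microglia markers were in the gene table, with Itgax at 0 in T1 and C4. Spp1 of that list was at 362 to 2220.1 CPM in TEPP-46 and at 108 to 3734 CPM in vehicle. The 8 macrophage markers summed to 89.6 to 285 CPM in TEPP-46 and 34.4 to 563 CPM in vehicle, and the 6 reactive astrocyte markers to 257 to 631 CPM in TEPP-46 and 106 to 780 CPM in vehicle, with none of them at 0 in any library. The 4 red blood cell markers, all haemoglobin genes, summed to 557 to 745 CPM in TEPP-46 and 319 to 1051 CPM in vehicle. In whole tissue, fewer cells of a type and less RNA per cell cannot be told apart, and the part of these cells in the levels of the 8 genes was not tested. The 11 general astrocyte markers summed to 4276 to 4635 CPM in TEPP-46 and 4030 to 4149 CPM in vehicle, a sum made up mostly of Aldoc and Slc1a2. Within that list the genes differed: Aldoc was at 1615 to 1789 CPM in TEPP-46, with 1380.0 CPM in C2 and 2018 CPM in C4, while Aqp4 was at 25.2 to 57.3 CPM in TEPP-46, with 57.9 CPM in C2 and 17.6 CPM in C4. Gja1, Mlc1 and Slc1a3 were also higher in C2 than in C4.

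The log2 fold changes of Apoe (-0.05) and Fabp5 (-0.0017) turned to 0.38 each without vehicle library C2. Without TEPP-46 library T1 they turned to 0.12 and 0.15. C2, picked out with its levels known, was the highest library of Apoe, Abca1, Fabp5 and Fabp7. It was also the highest of the vehicle libraries for Clu, Apod and Abcg1, but not for Abca2. Leaving out C2 raises the fold changes of all these genes except Abca2 by construction. Without C2 the log2 fold changes of all 8 genes were positive, with a median of 0.41, beside 0.01 over all genes tested. The share of positive fold changes over all genes is not reported here for that run. Again 0 of the 8 were called, where edgeR called 43 of 14752 genes (0.291%). Abca1 then stood at 11.1 CPM on average in TEPP-46 and 4.13 CPM in the remaining vehicle libraries, a log2 fold change of 1.41 (edgeR, unadjusted p = 0.00342, adjusted p = 0.189). Abca1 was the 1 gene of the 8 with an unadjusted p under 0.05 there, beside 4.51% of genes with such a p and a higher level in TEPP-46. Abca1 and Abcg1 were higher in all 3 TEPP-46 libraries than in C1 and C4, as were 13.6% of genes, while 26.3% had groups without overlap in either direction. Apoe then had a log2 fold change of 0.38 (adjusted p = 0.538), Apod of 0.78 (0.629), Fabp5 of 0.38 (0.566) and Fabp7 of 0.51 (0.537). Without C4, instead, Apod was at -0.05 and Abca1 at 0.12. Apoe was at -0.24 without C4 and at -0.20 without C1, and Fabp5 at -0.14 and -0.18.

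**Figure D3:**
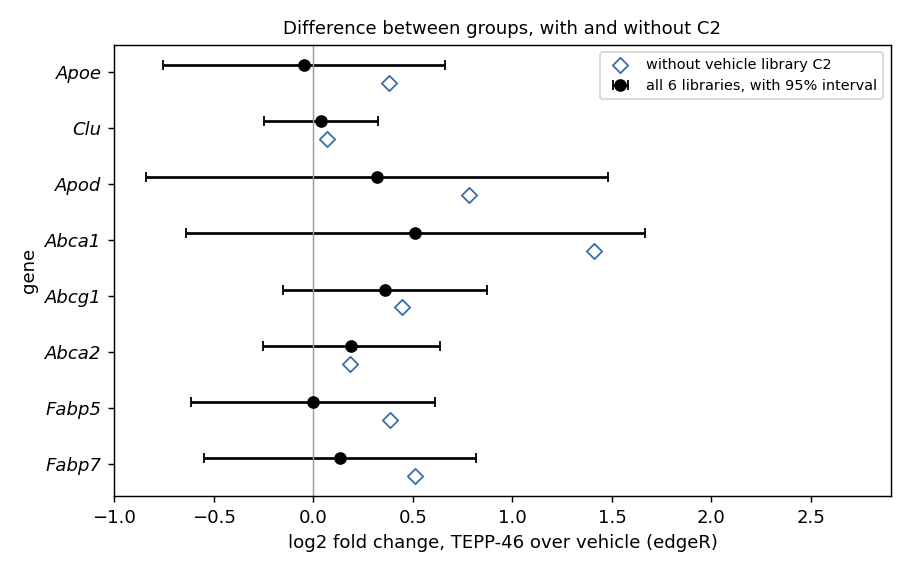
Log2 fold change of TEPP-46 over vehicle (horizontal axis) for each of the 8 genes (vertical axis), from all 6 libraries with the 95% interval (filled points) and without vehicle library C2 (open diamonds). Every interval includes 0, and without C2, the highest library of both genes, Apoe stands at 0.38 and Abca1 at 1.41.

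Nor was any other gene of lipid transport called. Over 8 lists by role, 59 further genes were read out, of which 47 passed the low-count filter. None was called (edgeR, adjusted p between 0.515 and 0.999), and 27 of the 47 stood higher in TEPP-46, the median log2 fold change being 0.05. An unadjusted p under 0.05 was found for 1 gene with TEPP-46 higher and 1 with TEPP-46 lower, beside 1.88% and 4.05% of all tested genes. The 12 genes that did not pass the filter had 0 to 49 counts in all, among them the apolipoprotein genes Apob, Apom and Apoa4 and the myelin lipid binding gene Pmp2, with 0 counts in every library.

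By role, the apolipoprotein gene Apoc2 was at 13.1 ± 8.55 CPM in TEPP-46 and 14.1 ± 20.3 CPM in vehicle (n = 3 per group, ± SD), and Apoc1 at 5.82 ± 1.19 and 7.72 ± 6.79 CPM. Apoa2 had the smallest p of the carriers and few counts (log2 fold change 1.33, adjusted p = 0.860). Among the transporters, Abca3 was at 40.1 ± 7.02 CPM in TEPP-46 and 42.1 ± 3.57 CPM in vehicle and Abcg4, a cholesterol exporter of neurons and astrocytes, at 19.3 ± 5.33 and 17.8 ± 1.68 CPM. Abca8b, with a log2 fold change of -0.86, did not pass (adjusted p = 0.862), and its reads may be shared with its close relative Abca8a, at 0.59.

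Of the other binding proteins, Dbi, which binds acyl-CoA, was at 1204 ± 199 CPM in TEPP-46 and 1089 ± 317 CPM in vehicle, and Fabp3 at 119 ± 23.3 and 146 ± 28.6 CPM (n = 3 per group, ± SD). The receptor genes included the smallest unadjusted p of the network. Lrp1, a receptor for ApoE particles, was at 48.8, 54.8 and 51.6 CPM in T1, T2 and T3, against 33.0, 37.7 and 33.5 CPM in C1, C2 and C4. The groups did not overlap, but Lrp1 did not pass over all genes (edgeR, adjusted p = 0.515). The microglial receptor gene Trem2, whose product binds ApoE, stood at 50.8 ± 14.2 CPM in TEPP-46 and 49.9 ± 38.2 CPM in vehicle, and Sort1 at 60.4 ± 13.4 and 63.1 ± 11.0 CPM.

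The groups overlapped for each of the 4 regulators given here. Nr1h2, which encodes liver X receptor beta, was at 105 ± 14.8 CPM in TEPP-46 and 108 ± 11.6 CPM in vehicle, and Srebf2, the regulator of cholesterol synthesis, at 68.3 ± 7.46 and 64.8 ± 7.83 CPM (n = 3 per group, ± SD). Rxra, the partner receptor, was at 14.6 ± 2.42 against 10.2 ± 2.26 CPM (edgeR, adjusted p = 0.882). Nr1h3, for liver X receptor alpha, was at 5.87 to 7.91 CPM in TEPP-46 and 6.67 to 9.55 CPM in vehicle.

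The neuronal enzyme gene Cyp46a1, whose product turns cholesterol into the oxysterol that leaves the brain, was the gene with an unadjusted p under 0.05 in the lower direction. It was at 83.5, 120 and 114 CPM in T1, T2 and T3, against 118, 137 and 167 CPM in C1, C2 and C4. T2 was above C1, so the groups overlapped, and Cyp46a1 did not pass over all genes (log2 fold change -0.43, edgeR adjusted p = 0.822). Inside the cell, the endosomal cholesterol carrier gene Npc2 was at 91.6 ± 11.0 CPM in TEPP-46 and 86.5 ± 43.4 CPM in vehicle, Gramd1b at 94.3 ± 7.09 and 81.5 ± 9.90 CPM and Gramd1a at 43.8 ± 12.6 and 60.5 ± 20.9 CPM (n = 3 per group, ± SD). Of the genes that remodel particles, the phospholipid transfer protein gene Pltp was at 122 ± 7.82 CPM in TEPP-46 and 109 ± 7.30 CPM in vehicle, and the lipase gene Lpl at 20.4 ± 7.16 and 21.8 ± 17.0 CPM.

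**Figure D4:**
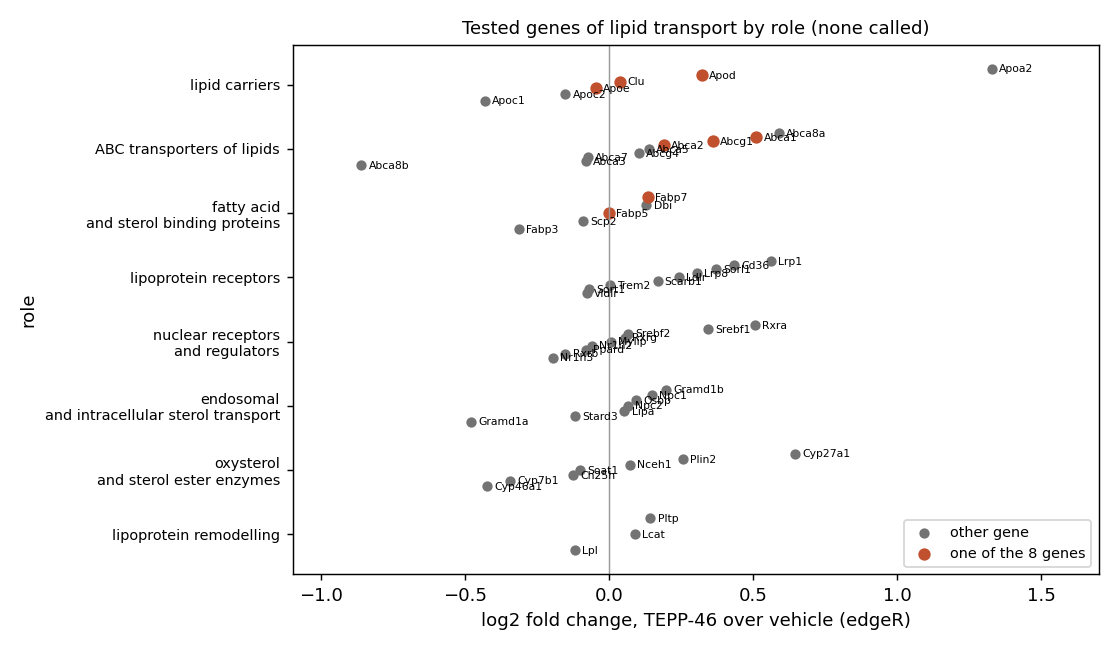
Log2 fold change of TEPP-46 over vehicle (horizontal axis, edgeR) for the tested genes of 8 lists by role (vertical axis), with the 8 genes in orange and the others in grey; the vertical place within a row only spreads the points. The points lie on both sides of 0 in every row, and none was called.

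The isoform table splits these totals further. Of the 29 isoforms, 24 had a reference identifier and 5 were new, and 25 were tested. None was called (edgeR, lowest adjusted p = 0.986) and none reached an unadjusted p under 0.05, beside 0% called and 5.77% at that p over 33854 isoforms. DESeq2 called none of them, and 153 isoforms in all (0.452%). Isoform usage, the proportions apart from the total, was tested in Apoe, Clu and Apod and was called in none (adjusted p = 1.000 in each, edgeR diffSpliceDGE), where 1 of 7639 genes was called (0.0131%) and 49 had an unadjusted p under 0.05 (0.641%). Abca1, Abcg1, Abca2 and Fabp5 had a single isoform each.

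Apoe had 10 isoforms, and the 4 most abundant share 1 coding sequence of 933 bases and differ in the untranslated parts. Apoe-206 took 29.9 ± 0.508% of the gene's counts in TEPP-46 and 30.4 ± 0.274% in vehicle (n = 3 per group, ± SD). The share of Apoe-206 differed by -0.50 percentage points, within the spread (exact two-sided permutation p = 0.2, adjusted 0.6 over 4 genes, where 0.1 is the smallest p possible). Counts of Apoe-206 and Apoe-201 differed by only 1.01 to 1.43% in each of the 6 libraries, and those of Apoe-205 and Apoe-209 by 5 to 13 counts, or 0.0325 to 0.175%. With counts this close, the 4 forms cannot be read as 4 separate measurements.

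A further 5 annotated Apoe isoforms end before the shared coding sequence does. Apoe-203, Apoe-204 and Apoe-207 are annotated with an incomplete 3′ end, and Apoe-208 and Apoe-210 read on from exon 3 into intron 3, where the coding sequence stops at 213 bases. The junctions show the difference, with the end of exon 3 in lower case and what follows in capitals (chromosome 7, minus strand, exon 3 ending at 19697479, GRCm38).
Apoe-201: caagtcacacaagaactgacGGCACTGATG
Apoe-210: caagtcacacaagaactgacGTGAGTGTCC
Together these 5 short-ended isoforms took 3.08, 3.63 and 2.68% of Apoe counts in T1, T2 and T3, against 3.04, 2.14 and 1.03% in C1, C2 and C4. The exact binomial 95% interval was 0.935 to 1.13% in C4 and 2.05 to 2.24% in C2, both below the intervals of all 3 TEPP-46 libraries, while C1 (2.88 to 3.20%) lay among them. C4 was thus the lowest library, although its total Apoe level, 7846 CPM, was close to that of C1, 8557 CPM. This grouping was chosen after the values were seen and carries no test.

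Clu had a like set of isoforms. Clu-201, the full annotated form with 1344 coding bases, took 24.9 ± 1.07% of counts in TEPP-46 and 24.7 ± 0.510% in vehicle (n = 3 per group, ± SD; exact two-sided permutation p = 0.8, adjusted 0.8), and 4 new isoforms took most of the rest. Among the new isoforms, counts of ONT.3724.3 and ONT.3724.5 differed by only 1 to 11 in each library, and those of ONT.3724.6 and ONT.3724.4 by 5 to 14. With counts this close, the 4 new forms cannot be read as 4 separate measurements. The 6 annotated short-ended isoforms held 74, 85 and 55 counts in T1, T2 and T3, against 72, 57 and 17 in C1, C2 and C4. As shares these were 2.10, 1.98 and 1.40%, against 2.04, 1.44 and 0.484%, so that C4 was again lowest and the groups overlapped. Clu-205 of this set is annotated as a target of nonsense-mediated decay: 4 more bases at the end of exon 2 change the reading frame and leave 117 coding bases (chromosome 14, plus strand, exon 2 of Clu-201 ending at 65971852, GRCm38).
Clu-201: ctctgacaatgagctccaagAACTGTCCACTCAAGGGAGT
Clu-205: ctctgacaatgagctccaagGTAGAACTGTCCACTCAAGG
In lower case is the shared end of exon 2 and in capitals what follows it.

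A related class, isoforms with an incomplete 3′ end alone, without early stops, was also least frequent in C4 outside these genes. These isoforms, 10500 of 64999 matched isoforms of other genes, took 0.939, 0.863 and 0.865% of counts in T1, T2 and T3, against 0.941, 0.775 and 0.639% in C1, C2 and C4. The part of this library difference in the Apoe and Clu shares was not tested.

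**Figure D5:**
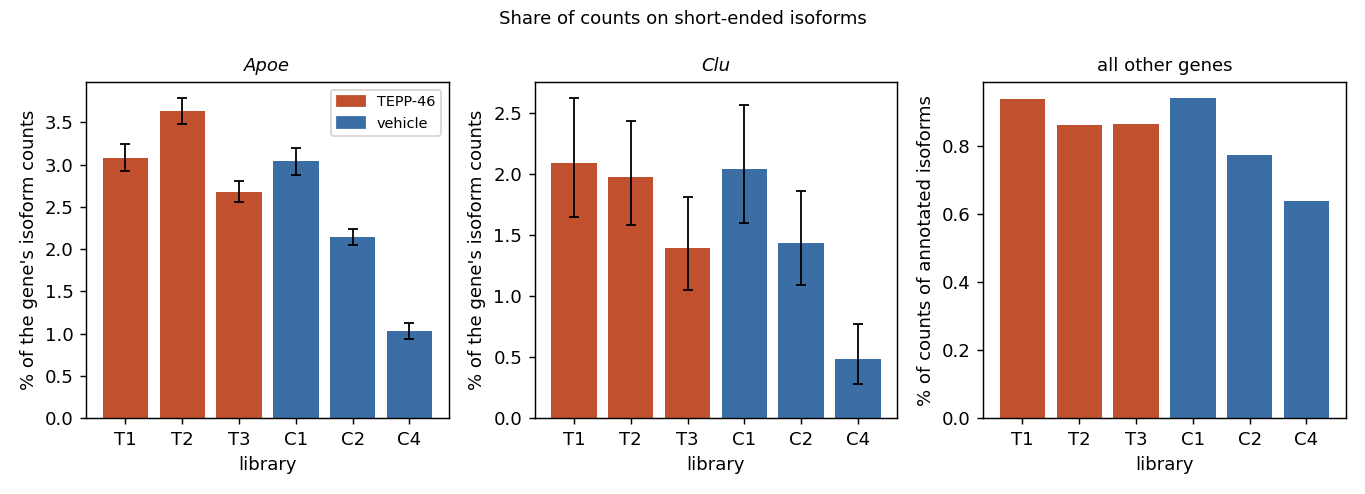
Percent of counts on isoforms that end early (vertical axes, from 0) in each library (horizontal axes, TEPP-46 in orange and vehicle in blue), for Apoe and Clu with exact binomial 95% intervals and for annotated isoforms with an incomplete 3′ end in all other genes. Vehicle library C4 is lowest in all 3 panels, at 1.03% for Apoe and 0.484% for Clu.

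Apod and Fabp7 had 2 isoforms each. Apod-203, which has an additional exon before the coding part and a longer last exon than Apod-202, took 72.1 ± 0.566% of counts in TEPP-46 and 70.8 ± 2.69% in vehicle (n = 3 per group, ± SD; exact two-sided permutation p = 0.8, adjusted 0.8). It was at 71.7 to 72.7% in TEPP-46 and at 67.7% in C4, with 72.3 and 72.5% in C1 and C2. Both forms share a coding sequence of 567 bases.

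Fabp7-201 took 99.1 ± 0.630% of counts in TEPP-46 and 98.1 ± 1.30% in vehicle (n = 3 per group, ± SD; exact two-sided permutation p = 0.3, adjusted 0.6). The other form, Fabp7-202, reads on from exon 3 into intron 3 and has 564 coding bases in place of 396. It had 2, 6 and 1 counts in T1, T2 and T3, against 1, 10 and 7 in C1, C2 and C4, too few to separate the groups. The junctions show where the messages part, with the end of exon 3 in lower case and what follows in capitals (chromosome 10, plus strand, exon 3 ending at 57786366, GRCm38).
Fabp7-201: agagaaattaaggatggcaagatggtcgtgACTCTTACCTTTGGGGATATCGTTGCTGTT
Fabp7-202: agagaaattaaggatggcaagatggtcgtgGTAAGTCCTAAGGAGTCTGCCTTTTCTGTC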

How the data were processed

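RNA of perihematomal tissue was measured in 3 TEPP-46 and 3 vehicle libraries made with a nanopore cDNA-PCR kit, per the labels' protocols. The authors deposited raw read counts per gene and per isoform, per the file headers, and 12 other columns that hold values per library were left aside. Their p-values and log2 fold changes come from DESeq2, per the file headers, while DESeq 1.10.1 and the build GRCm38 are named per the submitters' processing notes. How reads were aligned and counted, and shared among isoforms, is not given in the sources used here. Column letters (C1, C2, C4 against T1, T2, T3) were read as vehicle and TEPP-46, and column numbers match no sample.

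The test of the counts was edgeR 4.0.16 under R 4.3.3 (filterByExpr, TMM, robust quasi-likelihood F test, group as the single term, Benjamini-Hochberg over all features), and isoform usage with diffSpliceDGE. Fold changes are TEPP-46 over vehicle. The edgeR tests were run on simulated counts in which all features share a single dispersion and vary independently. Those counts held no library like C2 or C4, so the run does not bear on such libraries, nor on the permutation test. Exact Poisson and binomial intervals at 95% treat reads as independent and cover counting error only, and depth was 5286426 to 6025064 counts. Alternatives were DESeq2 1.42.0, limma-voom (limma 3.58.1), other scalings and filters, and leaving out each library.

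The 8 members and all lists were chosen with earlier results of these data known. The naming rule took the 8 genes, in each role list the 2 other genes of highest mean CPM and the 1 of smallest unadjusted p, the leading isoforms, and for each member with an SD of at least 0.3 over libraries on the log2(CPM + 1) scale the 3 genes nearest in profile. The nearest genes of Fabp5, and some of Fabp7, are not reported here. Nr1h3, Abca8a and the isoforms that end early were named after their values were seen. Of 65375 isoforms with a reference identifier, 65023 matched GENCODE M21 (GRCm38).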

Additional observations from a re-analysis of the deposited data

How the results depend on the processing

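No paired analysis was possible because numbers in the column headings cannot be tied to those of the samples. None of the 8 genes, of their isoforms and of the further lipid genes was called under any alternative run, and isoform usage of these genes was not called either. Over all genes, 0 were called, against 79 with DESeq2 (3 higher, 76 lower) and 0 to 43 when a library was left out, the 43 without C2. Over all isoforms, 0 were called, against 153 with DESeq2 and 0 to 178 without a library. Leaving out a library moved the log2 fold change of Apoe between -0.24 and 0.38, of Clu between -0.036 and 0.15, of Apod between -0.053 and 0.78, of Fabp5 between -0.18 and 0.38 and of Fabp7 between -0.057 and 0.51. It stayed positive for Abca1 (0.12 to 1.41), Abcg1 (0.27 to 0.49) and Abca2 (0.05 to 0.37). With limma-voom Apoe turned to 0.0059 and Fabp5 to 0.045, and with library totals Fabp5 turned to 0.014. The cause was not tested. The share of Clu-201 differed by 0.19 percentage points, by -1.83 among isoforms with a reference identifier alone, and by -0.31 to 0.76 without a library. The share of Apod-203 differed by 1.29 points, and by -0.26 to 2.11 without a library. Without a library the share differed by -0.75 to -0.24 points for Apoe-206 (-0.50 with all) and by 0.52 to 1.78 for Fabp7-201 (1.06 with all). Counts of 15 to 83 limit Abca1.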

Other observations

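Some lipid genes outside the 8 spread further across libraries than Abca1 did. The lipid droplet coat gene Plin2 was at 22.2, 82.0 and 87.2 CPM in T1, T2 and T3, against 15.7, 133 and 8.13 CPM in C1, C2 and C4. Apoc2, the gene of an activator of lipoprotein lipase, was at 5.64, 11.2 and 22.4 CPM in TEPP-46, against 3.37, 37.5 and 1.51 CPM in vehicle. In both, C2 was highest and C4 lowest, and the groups overlapped (edgeR, adjusted p = 0.997 and 0.998).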
